A study of Rattus norvegicus with 10 samples.

Results

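Dispersed muscle-exclusive regions are stretches of open chromatin that were called in every gastrocnemius library, in no adipose library, and with few of their kind nearby. They were chosen by the presence and absence of peaks, after merging the peaks of all 10 libraries on chromosomes 1 to 20 where peaks overlapped by at least 1 bp. A merged region was muscle-exclusive if all 5 muscle libraries and none of the 5 adipose libraries had a peak in it, and it was dispersed if its 100-kb window held 1 to 4 muscle-exclusive regions. Of 781477 merged regions 13838 (1.77%) met this rule. They made up 73.8% of the 18757 muscle-exclusive regions, and the remaining 4919 lay in windows with 5 or more and are called clustered below. Among 330041 regions called in at least 2 libraries, 5.68% were muscle-exclusive, dispersed or clustered; since the rule chose regions by this pattern, the presence of a peak in muscle and its absence in adipose is no result here.

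The assay was ATAC-seq, in which a transposase inserts adapters into accessible DNA of isolated nuclei, about 75000 nuclei per library. The 2 groups were gastrocnemius muscle (5 libraries) and abdominal white adipose tissue (5 libraries), from rats of the strain Fischer 344, each labelled as male and with an age of 8 months, and no treatment other than tissue collection is described. The design text speaks of single animals and of aliquots pooled from 15 males without tying either to a library, so each p-value reflects only how far these libraries spread, which may be partly technical. In nuclei from whole tissue, fewer nuclei of a type and less open chromatin per nucleus cannot be told apart. The coordinates are on build rn6. Without an annotation or genome of that build, regions are given here by position, with no genes, tissue markers or sequence.

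Most of the DNA that is open in one tissue and closed in another lies away from promoters, in enhancers. These are short elements, free of nucleosomes, that bind transcription factors and act on genes over long distances. In skeletal muscle, myogenic factors of the MyoD family and MEF2 proteins are known to bind such elements, often as single sites and sometimes as dense groups around genes that are heavily transcribed. A gastrocnemius is made mainly of multinucleate fast fibres, with satellite cells, endothelial cells, fibroblasts and immune cells between them, and an adipose depot holds adipocytes beside the last 3 kinds.

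Libraries stood apart in ways that touch these results. Muscle lists held 164283 to 188890 peaks and ran down to a −log10 p of 2.00, while adipose lists held 243928 to 259149 and ended at a −log10 p of 3.26 to 4.27, so the lists end at different thresholds. No source used here gives the number of reads, so depth is unknown and no counting interval is given. Adipose replicates 2, 3 and 4 had 0, 0 and 1 peaks on chromosome Y, against 31 and 45 in adipose replicates 1 and 5 and 16 to 24 in muscle, although the labels call every rat male. On chromosome X lay 3.26%, 2.78% and 3.47% of the peaks of these 3 lists, against 1.07% and 1.45% in adipose replicates 1 and 5 and 1.41% to 1.74% in muscle. When adipose replicates 2, 3 and 4 were left out together, the rule gave 16716 dispersed regions, a setting that asks for absence from fewer libraries. Peaks per window without these 3 libraries are given beside those results. The differences between dispersed and clustered regions were rerun without each of the 3 singly, not jointly. Their part in the remaining results was not tested.

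The dispersed regions were small, and they were spread over many windows. A merged region had a median width of 576 bp, with 320 bp at the 10th percentile and 1017 bp at the 90th, and all of them together covered 8.74 Mb. Clustered regions had a median of 583 bp, close to that of dispersed ones, and regions called in all 10 libraries had 1043 bp. The latter merge the peaks of both tissues, so their widths are not measured on equal terms. The 13838 regions were spread over 7580 windows, of which 3826 held 1 region, 1915 held 2, 1174 held 3 and 665 held 4. Just outside the limit, 374 windows held 5, and the fullest held 18.

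The fixed grid split some neighbours. The median gap from a dispersed region to the nearest other muscle-exclusive region was 19791 bp, against 5058 bp for clustered regions, a difference the rule builds in. With no regard to the grid, 3505 (25.3%) had no other muscle-exclusive region centred within 50 kb, and 1152 (8.32%) had 4 or more. Moving the grid by 50 kb gave 14017 dispersed regions, of which 12083 were the same ones (87.3% of the original regions and 86.2% of those in the moved grid).

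In the muscle libraries the dispersed regions were mostly well above the level at which the lists end. Peaks whose −log10 q reached 5 are called strong. The share of dispersed regions with a strong peak was 82.5%, 85.7%, 85.3%, 78.0% and 90.8% in muscle replicates 1 to 5, a mean of 84.5 ± 4.72% (SD, n = 5). Replicate 5 was the highest and replicate 4 the lowest, as they were among all peaks of the lists, of which 52.9%, 55.3%, 56.3%, 52.3% and 69.2% were strong. Those list shares count single peaks, while a dispersed region had to be called in all 5 muscle libraries and took its strongest peak. Part of the higher share in dispersed regions is therefore built in. For clustered regions the mean share was 86.6 ± 4.09%, and for regions called in all 10 libraries 93.3 ± 3.32%. Taken region by region, 8908 (64.4%) were strong in all 5 muscle libraries and 238 (1.72%) in none. Clustered regions were strong in all 5 in 69.8% of cases, and regions called in all 10 libraries in 82.5%. In 11394 (82.3%) the weakest muscle peak had a −log10 p of at least 4.27, the highest value at which any list ends, so that a peak of the same p would have been listed in any library. For regions called in all 10 libraries that share was 92.2%.

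The strongest peaks of the 5 muscle libraries lay close together within a dispersed region. The outermost of the 5 strongest summits were a median of 40 bp apart, and in 78.3% of the regions they lay within 100 bp. The values were 37 bp and 78.7% for clustered regions, and 31 bp and 76.3% for regions called in all 10 libraries. The percentile of a region's fold enrichment within the list, taken from its highest peak, had a median SD of 8.20 over the 5 muscle libraries, against 7.74 for clustered regions and 4.06 for regions called in all 10. Percentiles are bounded, and regions called in all 10 lay nearer the top (median 80.9 ± 1.51 against 67.4 ± 1.37 for dispersed ones). Their SDs are thus not on equal terms. The median ratio of the highest to the lowest fold over the 5 libraries was 1.69 for dispersed regions, 1.63 for clustered ones and 1.55 for those called in all 10. Across the 13838 regions the percentiles of 2 muscle libraries had a Pearson correlation of 0.712 to 0.837. It was 0.761 to 0.875 for clustered regions and 0.828 to 0.887 for those called in all 10. The regions are not independent replicates, and the libraries share the peak caller and the tissue.

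Fold enrichment, the height of a summit over the caller's background, comes from the authors. Ranks were taken inside 1 list; means and SDs of fold over the 5 lists are given for named regions, and the lists differ in their general level of fold. Dispersed regions made up their largest share in the upper middle of a muscle list and a small one among its 1000 highest peaks. Peaks in dispersed regions were 8.58 ± 0.440% of all autosomal peaks of a muscle library (SD, n = 5). They were 3.77 ± 0.769% of decile 1, the lowest by fold enrichment, 14.6 ± 1.22% of decile 8 and 9.21 ± 0.581% of decile 10. Decile 8 had the largest share in each of the 5 libraries. Among the 1000 peaks with the highest fold, 10, 25, 22, 17 and 41 lay in dispersed regions in muscle replicates 1 to 5, and 88.2% to 96.2% (mean 93.0 ± 3.04%) lay in regions called in all 10. Part of this shape is built in, because a region had to be called in all 5 muscle libraries and so seldom rests on the weakest peaks.

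**Figure D1:**
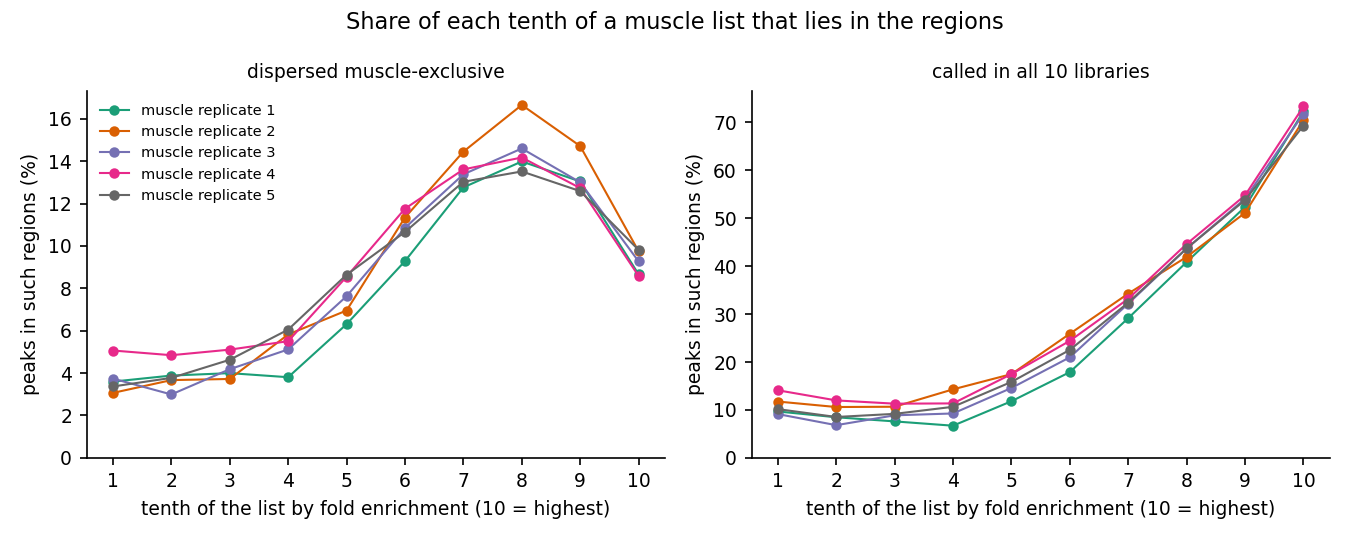
Percent of the peaks in each decile of a muscle list, ranked by fold enrichment with the highest in decile 10, that lie in dispersed muscle-exclusive regions (left) and in regions called in all 10 libraries (right); lines are the 5 muscle libraries. The dispersed share is highest in decile 8, at 14.6% on average, and is 9.21% in decile 10, where the regions of all 10 libraries reach 71.5%.

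The 10 dispersed regions with the best worst percentile were within the top 1% of every muscle list by fold enrichment. The first, on chromosome 18 at 8074557 to 8075257, is 701 bp wide and had a fold enrichment of 23.8, 22.6, 23.6, 25.3 and 26.2 in muscle replicates 1 to 5. It was the only muscle-exclusive region of its window. The second, on chromosome 17 at 24331369 to 24332224, had 24.4, 21.5, 24.4, 24.6 and 29.7, and was also the only muscle-exclusive region of its window. Regions on chromosome 11 at 51739280 to 51740139 and chromosome 4 at 40786146 to 40787225 had mean folds of 24.3 ± 2.33 and 24.1 ± 2.22 and were alone of their kind as well. All of these ranked above the 99.0th percentile in each muscle library, with −log10 q values of 170 or more in the weakest.

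The other 6 shared a window with 1 or 2 muscle-exclusive regions. Their folds (SD, n = 5) were 24.9 ± 2.91 for chr18:59367239-59367885, 23.6 ± 2.18 for chr5:136512427-136513439 and 24.1 ± 3.22 for chr8:99337844-99338511. They were 23.8 ± 3.44 for chr14:77411737-77412419, 23.5 ± 3.21 for chr9:76599419-76600102 and 23.3 ± 2.76 for chr18:2227803-2228473. The mean folds of these 6 differed by less than the SD of any of them. In all 10 the strongest summits of the 5 libraries were 9 to 18 bp apart. Only 3 of the 10 windows held a region called in all 10 libraries. The nearest peak of any adipose library was between 175 bp (chromosome 4) and 19838 bp (chromosome 11) away.

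The widest dispersed regions were not the strongest. The widest, on chromosome 4 at 30541860 to 30544480, measured 2621 bp and had a fold of 3.04 ± 0.462, with percentiles of 20.8 to 57.2. Next came chromosome 5 at 173640094 to 173642655 with 2562 bp (7.35 ± 1.26) and chromosome 1 at 213648705 to 213651201 with 2497 bp (6.59 ± 1.32). In the latter pair the strongest summits of the libraries were 1340 and 1146 bp apart, so different libraries peaked at different places in the region. On chromosome 20 at 10350770 to 10353115 (2346 bp, 9.27 ± 1.94) they were within 9 bp, and on chromosome 12 at 44294569 to 44296860 (2292 bp, 4.23 ± 0.924) within 110 bp.

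Over all members width and strength went together. Of 4 classes of nearly equal size, the narrowest by merged width had a median fold percentile of 52.8 ± 2.19 and a strong peak in 75.9 ± 6.64% of its regions; in the widest class the values were 81.4 ± 0.514 and 93.8 ± 2.25% (SD, n = 5 muscle libraries). A merged region takes in the peaks of all libraries, so width is not independent of peak height. The weakest members by worst percentile were at the bottom of a list: chromosome 15 at 45926856 to 45927189 had folds of 1.31, 1.88, 1.54, 1.53 and 1.75 in muscle replicates 1 to 5. The other 4 of the 5 weakest had mean folds of 1.53 to 1.77, and the weakest −log10 q of each of the 5 was between 0.539 and 1.14.

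Few dispersed regions stood in otherwise empty windows, and such windows were rare throughout. Of all 26193 windows, 853 held no region called in 2 or more libraries besides muscle-exclusive ones. The share of other regions that stood alone was not measured, so this scarcity cannot be called a trait of dispersed regions. Only 14 dispersed regions (0.101%) were the sole region of their window called in 2 or more libraries. The best ranked of these, on chromosome 12 at 34187243 to 34187618, is 376 bp wide and had folds of 15.1, 17.1, 17.2, 12.3 and 15.8 in muscle replicates 1 to 5, with no adipose peak within 19413 bp. The next 4 had folds of 8.90 ± 0.765 (chr10:96836713-96837683), 7.92 ± 2.53 (chr8:115755733-115756457), 6.58 ± 1.75 (chr13:75654083-75654634) and 6.19 ± 1.90 (chr10:9103935-9104376).

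On average over the muscle libraries, fold enrichment was lower the more muscle-exclusive regions a window held. The median percentile of dispersed regions was 68.8 ± 1.34 in windows with 1, 68.1 ± 1.45 with 2, 66.4 ± 1.20 with 3 and 65.1 ± 1.32 with 4 (SD, n = 5), and the order 1, 2, 3, 4 held in each of the 5 muscle libraries. Just outside the limit, regions in windows with 5 had 63.1 ± 1.41, and those in windows with 10 or more 52.9 ± 1.77. Beyond 4 the order did not hold in each library: muscle replicate 5 had 62.5 with 5 and 62.8 with 6 to 9. From windows with 1 to windows with 4 the difference was 3.75 ± 0.503 percentile points (exact sign-flip permutation p = 0.0625, two-sided, the smallest that 5 pairs allow, and 0.0625 after adjustment over 5 measures).

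Width and the share of strong peaks went the other way between windows with 1 and with 4, without a steady order. In windows with 1 the median width of the widest peak was 378.5 ± 30.9 bp and 82.4 ± 5.49% of the regions had a strong peak, and in windows with 4 these were 402.6 ± 36.9 bp and 85.8 ± 3.92%. The differences, 1 minus 4, were -24.1 ± 12.7 bp and -3.43 ± 1.75 percentage points and lay below 0 in 5 of 5 libraries (exact sign-flip permutation p = 0.0625 each). Width was larger at each step from 1 to 4 in 3 of 5 libraries and the strong share in 2 of 5. In windows with 10 or more the values were 402.8 bp and 84.9%, below the 419.8 bp and 87.4% in windows with 6 to 9. Compared with windows with 4, regions in windows with 1 thus ranked higher by fold and less often had a strong peak in each library.

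Against clustered regions the same contrast held in each muscle library. The median fold percentile of dispersed regions was 68.6, 68.7, 67.6, 65.6 and 66.3 in muscle replicates 1 to 5, a mean of 67.4 ± 1.37 against 61.9 ± 1.90 for clustered ones. The difference was 5.47 ± 1.10 points and above 0 in 5 of 5 libraries. In the same libraries dispersed regions were narrower by 13 to 23 bp (394.6 ± 34.8 against 413.4 ± 32.1 bp), had fewer summits (1.41 ± 0.0503 against 1.51 ± 0.0541 per region) and less often a strong peak (84.5 ± 4.72% against 86.6 ± 4.09%; SD, n = 5 each). Each of these 4 differences had an exact sign-flip permutation p of 0.0625, or 0.0781 after adjustment over 5 comparisons, and a design of 5 pairs cannot go below 0.0625. Since both kinds were chosen with the local number of peaks in the rule, width and number of summits are not free of it.

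**Figure D2:**
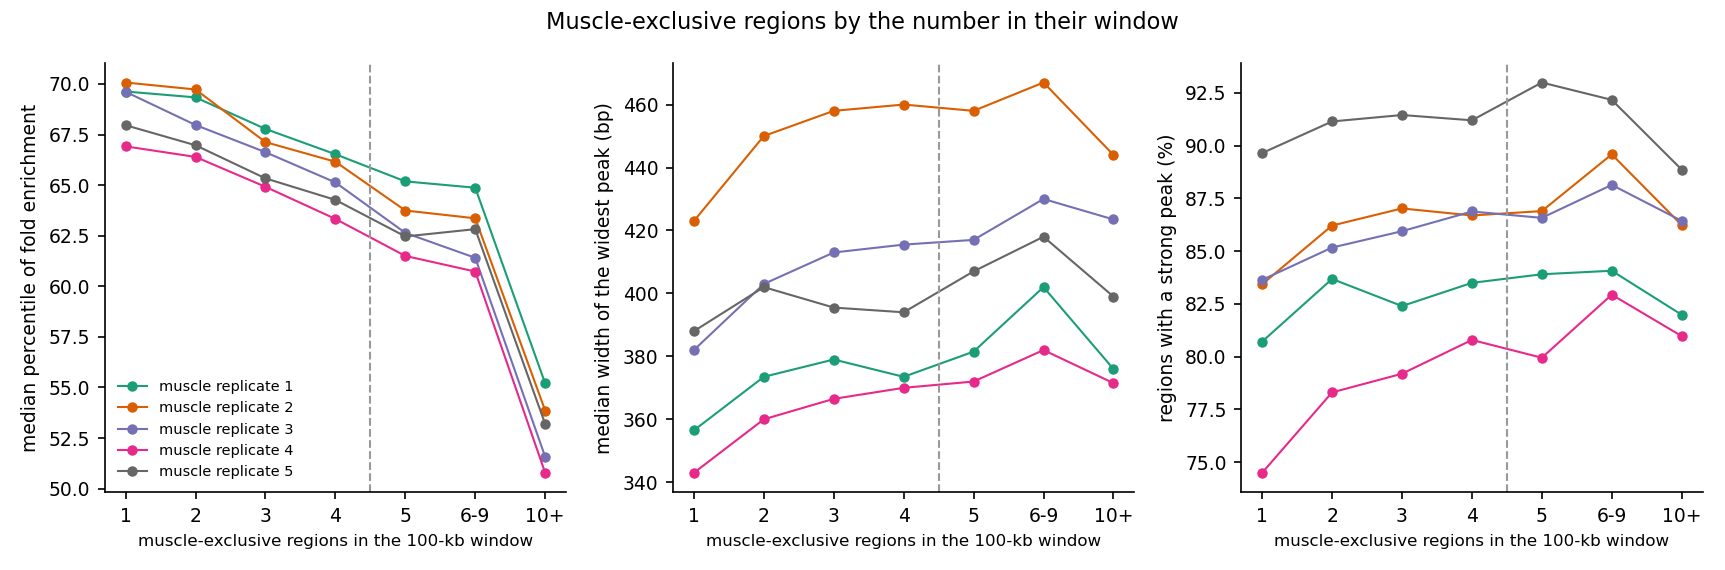
Median percentile of fold enrichment within the list, median width in bp of the widest peak of a region, and percent of regions with a strong peak (−log10 q of at least 5), by the number of muscle-exclusive regions in the 100-kb window; lines are the 5 muscle libraries and the dashed line is the limit between dispersed and clustered regions. The percentile is lower from 1 (68.8 on average) to 4 (65.1) to 10 or more (52.9), and the share of strong peaks is higher at 4 (85.8%) than at 1 (82.4%) in each library.

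A pair of windows at the limit shows what lies on either side of it. The best-ranked window with 4 regions, on chromosome 11 at 15500001 to 15600000, held regions at 15504858 to 15505452, 15513276 to 15514441, 15522720 to 15523654 and 15534724 to 15535508, with folds of 9.27 ± 2.04, 14.2 ± 2.63, 15.5 ± 1.88 and 9.16 ± 0.348. All 4 ended by 15535508. The best-ranked window with 5, on chromosome 20 at 33000001 to 33100000, had folds of 8.00 ± 1.24, 7.57 ± 1.08, 10.7 ± 4.89, 18.3 ± 2.75 and 10.1 ± 1.74 (SD, n = 5 muscle libraries each). Neither window held a region called in all 10 libraries.

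Windows with dispersed regions held more open chromatin shared by both tissues than windows without a muscle-exclusive region. A window with dispersed regions held a mean of 2.90 regions called in all 10 libraries, and 82.2% of the windows held at least 1. Windows without a muscle-exclusive region held 0.907, and 35.7% had at least 1. With 1, 2, 3 and 4 dispersed regions the mean was 2.61, 3.11, 3.25 and 3.34, and clustered windows had 3.16. Adipose-exclusive regions, called in all 5 adipose and no muscle libraries, varied less between the kinds of window: there were 0.231 per window with dispersed regions, 0.215 per window without a muscle-exclusive region and 0.267 per clustered window. These are counts over one set of merged regions, given as a description. A region called in all 10 libraries needs peaks in every muscle list, so its counts follow muscle peaks as well. Adipose peaks outside exclusive regions numbered 10.4 ± 0.871 per window with dispersed regions and 8.40 ± 0.555 per window without a muscle-exclusive region (SD, n = 5). At least 1 such peak lay in 99.3% and 95.1% of these windows, so both kinds were open in adipose tissue.

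The gap to shared open chromatin was short. From a dispersed region to the nearest region called in all 10 libraries the median gap was 11506 bp, with 4518 bp and 29322 bp at the quartiles. Within 10 kb of such a region lay 46.1% of the dispersed, 44.6% of the clustered and 28.5% of the adipose-exclusive regions. The medians for clustered and adipose-exclusive regions were 12025 and 27124 bp. Dispersed and clustered regions thus differed little in this gap, and no test was made of it, since it has 1 value per region and no replicate.

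**Figure D3:**
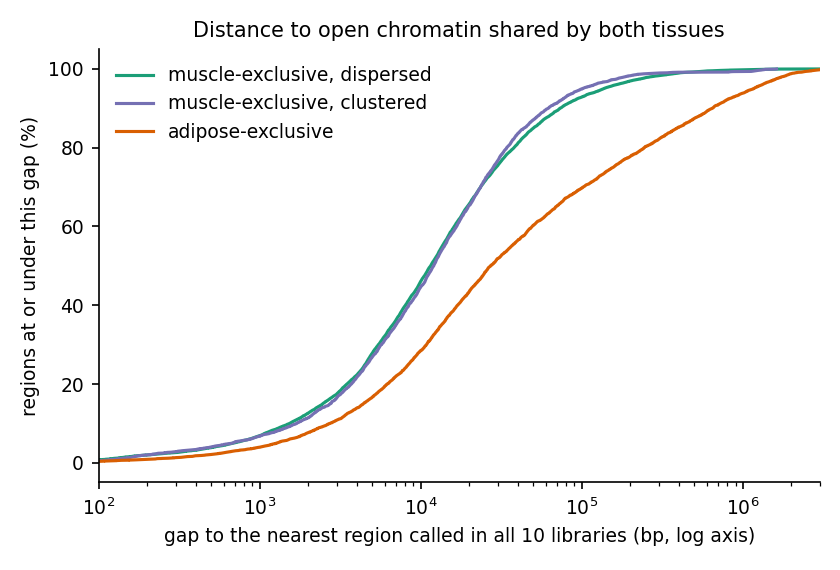
Cumulative percent of regions by the gap in bp (log axis) to the nearest region called in all 10 libraries, for dispersed and clustered muscle-exclusive regions and for adipose-exclusive regions. The curves of the muscle-exclusive kinds nearly coincide, with medians of 11506 and 12025 bp, and the adipose-exclusive curve lies at longer gaps, with a median of 27124 bp.

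Fold enrichment followed this gap, and the share of strong peaks did not. The 954 dispersed regions within 1 kb of a region called in all 10 libraries had a median fold percentile of 53.7 ± 2.27. It was 63.5 ± 1.62 for the 5427 at 1 to 10 kb, 70.6 ± 1.18 for the 5378 at 10 to 50 kb and 74.1 ± 1.06 for the 2079 farther away (SD, n = 5). Between the nearest and the farthest class the difference was -20.3 ± 1.56 points, below 0 in 5 of 5 libraries (exact sign-flip permutation p = 0.0625, the smallest possible, and 0.0729 after adjustment over 7 comparisons). The share with a strong peak was 84.8 ± 3.98% in the nearest class and 85.0 ± 4.04% in the farthest, a difference of -0.272 ± 2.06 percentage points (range -2.89 to 2.05, exact sign-flip permutation p = 0.875). The median width of the widest peak was 346.5 ± 26.0 bp in the nearest class and 398.8 ± 35.3 bp in the farthest. This width difference, -52.3 ± 12.3 bp, lay below 0 in 5 of 5 libraries (exact sign-flip permutation p = 0.0625). Peaks that overlap a region called in all 10 libraries were merged into it, so the nearest class is not on equal terms with the others. The part of width in the order of fold was not tested.

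This order of fold was not confined to dispersed regions. Clustered regions within 1 kb of a region called in all 10 libraries had a median percentile of 51.9 ± 1.42 and those over 50 kb away 66.3 ± 1.37. In them the share of strong peaks was higher near the shared regions, at 88.8 ± 4.47% against 84.7 ± 4.08%, in 5 of 5 libraries (exact sign-flip permutation p = 0.0625). Whether the dispersed and clustered gradients differ was not tested.

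Peaks of single adipose libraries came close to most dispersed regions without overlapping them. The nearest peak of any adipose library was a median of 1276 bp away; 41.6% of the regions had one within 1 kb and all but 273 within 10 kb. In adipose replicates 1 to 5, taken singly, 86.8%, 85.6%, 88.7%, 82.1% and 84.3% of the dispersed regions had a peak within 10 kb. For clustered regions the shares were 85.9%, 85.5%, 88.8%, 81.2% and 81.4%. The mean difference was 0.965 ± 1.21 percentage points (dispersed minus clustered, exact sign-flip permutation p = 0.125, adjusted p = 0.125), and it was -0.0681 without adipose replicate 5 (exact sign-flip permutation p = 0.875). With windows of 50 kb in the rule it was 5.40, and with windows of 200 kb -1.21 (exact sign-flip permutation p = 0.0625 each). Adipose peaks were dense throughout, at a mean of 9.06 ± 0.274 outside exclusive regions per 100-kb window over all windows (SD, n = 5). The share of other positions with an adipose peak this close was not measured, so closeness cannot be called a trait of dispersed regions.

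Outside the exclusive regions themselves, windows with dispersed regions held more peaks than the average window in both tissues, and the excess was larger in muscle. Peaks in muscle-exclusive and adipose-exclusive regions were taken out for this comparison. The windows were still chosen by the contrast of muscle with adipose, so their values are a description of the chosen windows, with no test. Relative to the mean over all 26193 windows, a window with dispersed regions held 1.73 to 1.93 times as many peaks in the muscle libraries and 1.02 to 1.29 times as many in the adipose libraries. Per 100000 peaks of the list there were 6.17 ± 0.210 in muscle and 4.17 ± 0.359 in adipose (SD, n = 5 each), and the ranges did not overlap. In windows without a muscle-exclusive region, picked by the same rule for their lack of one, adipose had 3.37 ± 0.181 and muscle 1.86 ± 0.146.

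The difference varied with the scaling and the peaks admitted. In peak numbers not scaled to the list, a window with dispersed regions had 10.8 ± 0.231 peaks in muscle and 10.4 ± 0.871 in adipose, and the ranges overlapped. With all lists limited to a −log10 p of at least 4.27, adipose had 4.42 and muscle 6.12 per 100000. Among strong peaks alone, with regions and windows chosen anew, adipose had 5.55 and muscle 5.44 per 100000 strong peaks. Without adipose replicates 2, 3 and 4, again with regions chosen anew, adipose had 3.78 and muscle 5.21. Not scaled, windows with 3 and with 4 dispersed regions had more peaks in every muscle library than in any adipose library, at 12.98 ± 0.190 against 11.01 ± 1.05 and 14.0 ± 0.256 against 11.1 ± 1.02. Windows with 1 had 9.10 ± 0.317 in muscle against 9.98 ± 0.755 in adipose, and windows with 2 had 11.55 ± 0.223 against 10.7 ± 0.957, with overlapping ranges in both.

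**Figure D4:**
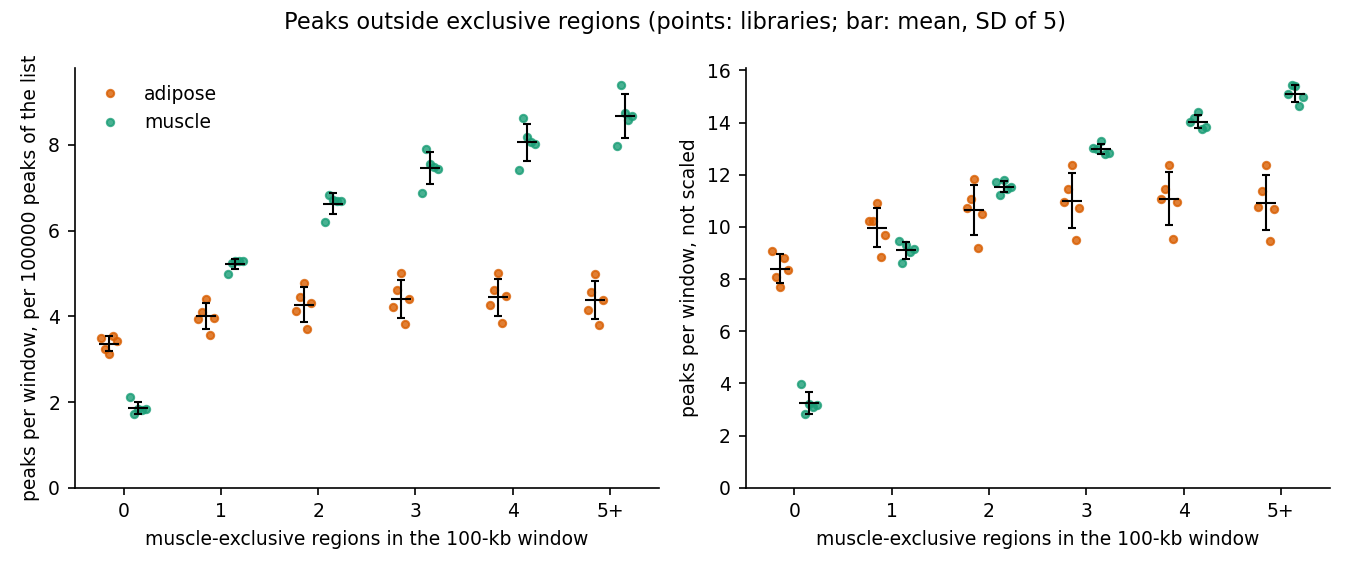
Peaks outside exclusive regions per 100-kb window, scaled to 100000 peaks of the list (left) and not scaled (right), by the number of muscle-exclusive regions in the window; points are the 5 adipose and 5 muscle libraries, bars the mean and SD. Scaled, windows with 1 to 4 dispersed regions hold more peaks in every muscle library than in any adipose library; not scaled, the tissues overlap at 1 (9.98 in adipose, 9.10 in muscle on average) and at 2, and muscle lies above adipose at 3 (12.98 and 11.01).

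Windows were also fitted singly. With limma on log2 peaks per 100000, 25079 windows were tested, of which 25.9% had more peaks in muscle and 44.0% more in adipose at a Benjamini-Hochberg adjusted p under 0.05. Among the 7555 tested windows with dispersed regions these were 4282 (56.7%) and 623 (8.25%). The share called for muscle was 42.8%, 62.8%, 76.0% and 84.5% in windows with 1, 2, 3 and 4 dispersed regions, and 92.2% in clustered windows. The median log2 difference, adipose minus muscle, was -0.52 over the windows with dispersed regions and 0.39 over all windows tested. Since the rule picked these windows for muscle peaks, the counts describe them and support no direction.

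The counts under other settings are set beside their own backgrounds. Without scaling, 1460 windows with dispersed regions (19.3%) were called by limma for muscle and 1288 (17.05%) for adipose, against 8.60% and 54.5% of all windows. With the lists limited to a −log10 p of at least 4.27, 3490 of 7294 (47.8%) were called for muscle and 598 (8.20%) for adipose, against 21.6% and 43.8% of all windows. Among strong peaks 569 of 6982 (8.15%) were called for muscle and 566 (8.11%) for adipose, against 5.81% and 18.4% of all windows. Without adipose replicates 2, 3 and 4, 3045 of 8487 windows (35.9%) were called for muscle and 413 (4.87%) for adipose, against 19.7% and 31.2% of all windows. With windows of 200 kb, 2123 of 4503 (47.1%) were called for muscle and 654 (14.5%) for adipose, against 28.4% and 45.3% of all windows.

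Every autosome held dispersed regions, and most of them where shared open chromatin was also dense. There were 5.28 per Mb over the 20 autosomes, counted to the last listed peak of each chromosome. Chromosome 10 had the most per Mb, with 976 regions or 8.67 per Mb, followed by chromosome 12 (7.14), chromosome 19 (7.01) and chromosome 8 (6.504). Chromosomes 15 and 2 had the fewest per Mb, at 3.86 and 3.89. Regions called in all 10 libraries numbered 25.4 per Mb on chromosome 10 and 10.98 on chromosome 2. The densities of the 2 kinds had a Pearson correlation of 0.898 over 20 chromosomes, or 0.795 without chromosomes 10 and 12. The chromosomes share the libraries and lists, so this is a description.

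Relative to shared open chromatin, chromosome 18 had the most dispersed regions and chromosome 20 the fewest. There were 0.340 dispersed regions per region called in all 10 libraries over the autosomes, 0.411 on chromosome 18 and 0.268 on chromosome 20. Chromosome 10, with 0.342, was near the ratio over all autosomes. Its muscle-exclusive regions were dispersed in 68.5% of cases, the lowest share of any autosome, and its windows with dispersed regions held 2.00 of them on average, the highest. The highest dispersed shares, 78.4% each, were on chromosomes 16 and 4.

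**Figure D5:**
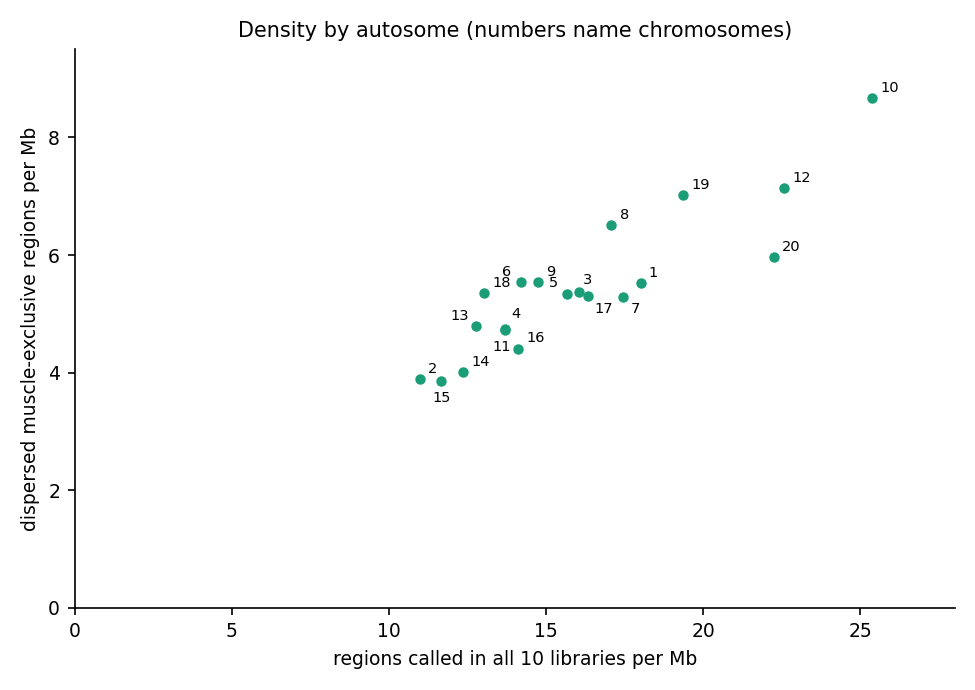
Dispersed muscle-exclusive regions per Mb against regions called in all 10 libraries per Mb, with 1 point per autosome and the chromosome number beside it. Density rises from chromosomes 2 and 15 (3.89 and 3.86 dispersed regions per Mb) to chromosome 10 (8.67), and chromosome 20 lies lowest for its number of shared regions.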

How the data were processed

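ATAC-seq libraries of gastrocnemius (5) and abdominal white adipose tissue (5) were analysed from 1 narrowPeak list per library. Per the submitters' processing notes, build rn6 and the tools FastQC, Trimmomatic, Bowtie2, Picard and MACS2 were used; versions, settings and any shift of reads for the transposase are not given in the sources used here. Each deposited row holds a score, a fold enrichment ratio at the summit, and −log10 p and −log10 q values, all by the authors. Rows that share an interval were counted as 1 peak with several summits, and a region took its strongest peak in a library.

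Members and lists were chosen with earlier results of these data known. Within libraries, two-sided exact sign-flip permutation was used. The exact permutation test planned between tissues is not reported, since the rule chose the windows by that contrast, and limma calls are given as a description. Windows of 100 kb with a mean of at least 1 peak were tested with limma (trend) on log2(peaks per 100000 peaks + 0.5). Tests were adjusted within families by Benjamini-Hochberg, and merging and limma were tested on simulated data. Named regions were the 10 best and 5 lowest by worst percentile, the 5 widest, the 5 best that were alone in their window, and the best windows with 4 and 5. Genes, markers, motifs and sequences had been planned but need a genome of this build, and the tables at hand are for GRCr8, so they are not analysed here. Rat numbers 1 to 5 recur in the titles of both tissues. The software was limma 3.58.1 in R 4.3.3, and NumPy 2.4.6, pandas 2.3.3, SciPy 1.17.1 and matplotlib 3.10.9 in Python 3.11.15.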

Additional observations from a re-analysis of the deposited data

Results flagged for a closer look

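In 42 sets of 5 libraries, 6 values stood apart from their nearest neighbour by more than 0.71 of the range. Chance alone sets off about 1 in 20 independent sets. These sets share libraries and include regions chosen by their values, so 6 of 42 does not measure an excess. The median fold enrichment of dispersed regions was highest in muscle replicate 5, at 6.08; 69.2% of all peaks of that list were strong, the largest share of any muscle list. Muscle replicate 2 had the most summits per dispersed region, 1.50. Among the muscle lists, replicate 1 had the lowest scaled number of peaks outside exclusive regions per window with dispersed regions. It was 5.81 per 100000 and 1.73 times the mean of all windows. Not scaled, muscle replicate 1 held 10.97 per window, and muscle replicate 2 held the fewest, 10.4. In muscle replicate 5 the fold of chr18:59367239-59367885 reached 30.03, above its other libraries, and in muscle replicate 1 that of the weak region chr8:115067381-115067629 reached 1.87.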

How the results depend on the processing

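The number of dispersed regions stayed within 1.5 times of 13838 in all 17 alternatives, from 9316 with windows of 200 kb to 17081 with windows of 50 kb, and was 14291 to 14706 without single libraries. It was 14371 among strong peaks, of which the original regions overlapped 7666 times (55.4% of them). The 4 differences between dispersed and clustered regions kept their direction in the alternatives run against clustered regions. Without single libraries they were 4.99 to 5.95 percentile points, -21.4 to -15.2 bp, -0.106 to -0.0937 summits and -2.96 to -2.07 percentage points of strong peaks. Larger moves were 8.42 percentile points with windows of 50 kb, -9.6 bp among strong peaks and -1.31 percentage points with lists limited to a −log10 p of at least 4.27. Against regions called in all 10 libraries the percentile difference turned to -13.5. The share with an adipose peak within 10 kb, dispersed minus clustered, turned to -1.26 among strong peaks and -1.21 with windows of 200 kb. It was 5.40 with windows of 50 kb, 1.50 with the limited lists, 2.39 within 5 kb and -0.0681 to 1.16 without single libraries; the cause was not tested.

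The adipose minus muscle difference in scaled peaks per window with dispersed regions was -2.001, and -1.91 to -1.79 without single libraries. It was -0.349 not scaled, -1.70 with the limited lists, -1.43 without adipose replicates 2, 3 and 4, and turned to 0.109 among strong peaks; the cause was not tested. With libraries paired by rat number (replicate block) it was -2.001, and limma called 4279 windows for muscle and 599 for adipose. Same-numbered libraries of the 2 tissues had deviations correlated at -0.112 to 0.0552, and other-numbered ones at -0.206 to 0.254. These deviations may be partly technical, so they cannot decide whether a number names the same animal in both tissues. Of windows with dispersed regions, limma called 3935 to 4249 for muscle and 580 to 712 for adipose without single libraries, 1460 and 1288 not scaled, 569 for muscle among strong peaks and 413 for adipose without adipose replicates 2, 3 and 4. With windows of 200 kb it called 2123 of 4503 for muscle (47.1%, against 28.4% of all windows), where fewer windows were tested. With exclusive regions kept, an alternative chosen after seeing the data, it called 311 of 7574 for adipose (4.11%, against 43.8% of all windows); this count includes the peaks by which the windows were chosen, so it tests nothing.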
